A study of Mus musculus with 160 samples.

Results

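The goblet cell and mucus genes described here are 10 genes chosen by name, *Muc2*, *Fcgbp*, *Clca1*, *Zg16*, *Tff3*, *Agr2*, *Atoh1*, *Spdef*, *Muc1* and *Muc4*, of the 39179 genes counted in each file. The libraries were made from distal colon of 160 mice from 4 knockout lines, *Nckap1l* (also called Hem1), *Dock2*, *Gpsm3* and *Dok3*. Homozygous knockouts and wild-type mice were compared within each line: 16 and 15 mice of the *Nckap1l* line, 18 and 24 of the *Dock2* line, 20 and 20 of the *Gpsm3* line, and 26 and 21 of the *Dok3* line. The *Nckap1l*, *Dock2* and *Gpsm3* lines were on the C57BL6/J strain and the *Dok3* line on 129. The experiment used dextran sulfate sodium (DSS), a sulfated polysaccharide that is drunk with the water and damages the lining of the colon, for 5 days followed by plain water. The labels give 3% DSS for the *Dock2* and *Gpsm3* lines, 3.5% for the *Dok3* line and no dose for the *Nckap1l* line, and tissue was collected on day 10, or on day 12 for *Nckap1l*. They do not say which mice drank DSS and which did not, so treated and untreated mice could not be separated in any group. Females were 4 of the *Nckap1l*-/- mice, 8 of their wild types, 8 of the *Dock2*-/- mice and 12 of their wild types, and the *Gpsm3* and *Dok3* mice were all labelled male.

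Goblet cells are secretory cells of the intestinal epithelium that package the mucin MUC2 with other granule proteins and release them as the mucus that covers the colon. They arise from crypt progenitors in which Notch signaling is low, so that the transcription factor ATOH1 becomes active, and they mature under SPDEF, which favors the genes of protein folding and secretion. Transmembrane mucins such as MUC1 and MUC4 stay anchored to the apical membrane and are made by other epithelial cells as well. In whole tissue, fewer goblet cells and less RNA per goblet cell cannot be told apart.

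Total counts on genes ran from 4344988 to 19993833 per library, so that 3 counts were worth 0.15 to 0.69 CPM, the count as a share of the library size scaled by the TMM method. In each line the median of the targeted gene was lower in the knockouts, at 14.8 against 27.2 CPM for *Nckap1l*, 22.5 against 34.2 for *Dock2*, 0.572 against 3.21 for *Gpsm3* and 3.16 against 3.63 for *Dok3*, and the ranges of knockouts and wild types overlapped in all 4 lines. The highest *Dok3* level was 39.6 CPM in a knockout library and 26.3 in the wild types. In 32 of the 160 libraries, a list of 9 skin genes such as keratins of the epidermis averaged 5.90 to 10.09 on the log2 CPM scale, against -0.75 to 2.84 in the other 128. These libraries with skin RNA were 7 *Nckap1l*-/- and 8 of their wild types, 1 *Dock2*-/- and 4 wild types, 2 *Gpsm3*-/- and 1 wild type, and 4 *Dok3*-/- and 5 wild types. They were 13 of the 14 libraries in the first run of sample numbers of the *Nckap1l* line, a run being a stretch of nearby numbers in the sample titles whose meaning the labels do not give. A list of 10 striated muscle genes was also higher in them, at 1.63 to 9.18 against -0.81 to 3.72. The defining epithelial list, 11 genes such as *Epcam*, was detected throughout, averaging 7.28 to 9.92. In the *Dok3* line, 5 libraries (3 knockout and 2 wild type) had sex markers that differed from their label, and the genotype, slope and wild-type fits of that line were also computed without these 5, which called 0, 6 and 1 of the 10 genes against 0, 5 and 1 with them.

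All 10 genes were counted in every library, with a lowest count of 19 for *Atoh1*, and together they held 0.0518% to 3.92% of a library's counts (median 1.43%). Levels of different genes were compared per length, as RPKM on the exonic length. Medians over the 160 libraries were 1077 RPKM for *Zg16*, 864 for *Clca1*, 811 for *Tff3*, 607 for *Fcgbp*, 388 for *Agr2* and 252 for *Muc2*, and then 19.8 for *Atoh1*, 19.1 for *Muc4*, 12.9 for *Spdef* and 5.05 for *Muc1*. The order split into 6 secreted or secretory-pathway products and 4 genes of much lower level. Interquartile ranges of the libraries overlapped between neighbors in the order down to *Muc2* (179 to 310 RPKM), not between *Muc2* and *Atoh1* (13.3 to 24.1 RPKM), and again not between *Spdef* (9.89 to 15.3 RPKM) and *Muc1* (3.84 to 6.72 RPKM). The RPKM of *Muc2* is uncertain, because 2 counted Ensembl identifiers that the annotation used here does not name, ENSMUSG00000095400 and ENSMUSG00000094393, followed *Muc2* across the libraries (r = 0.999 for each, across 160 libraries) with medians of 360.3 and 623.8 CPM against 1798 CPM for *Muc2* itself.

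**Figure D1:**
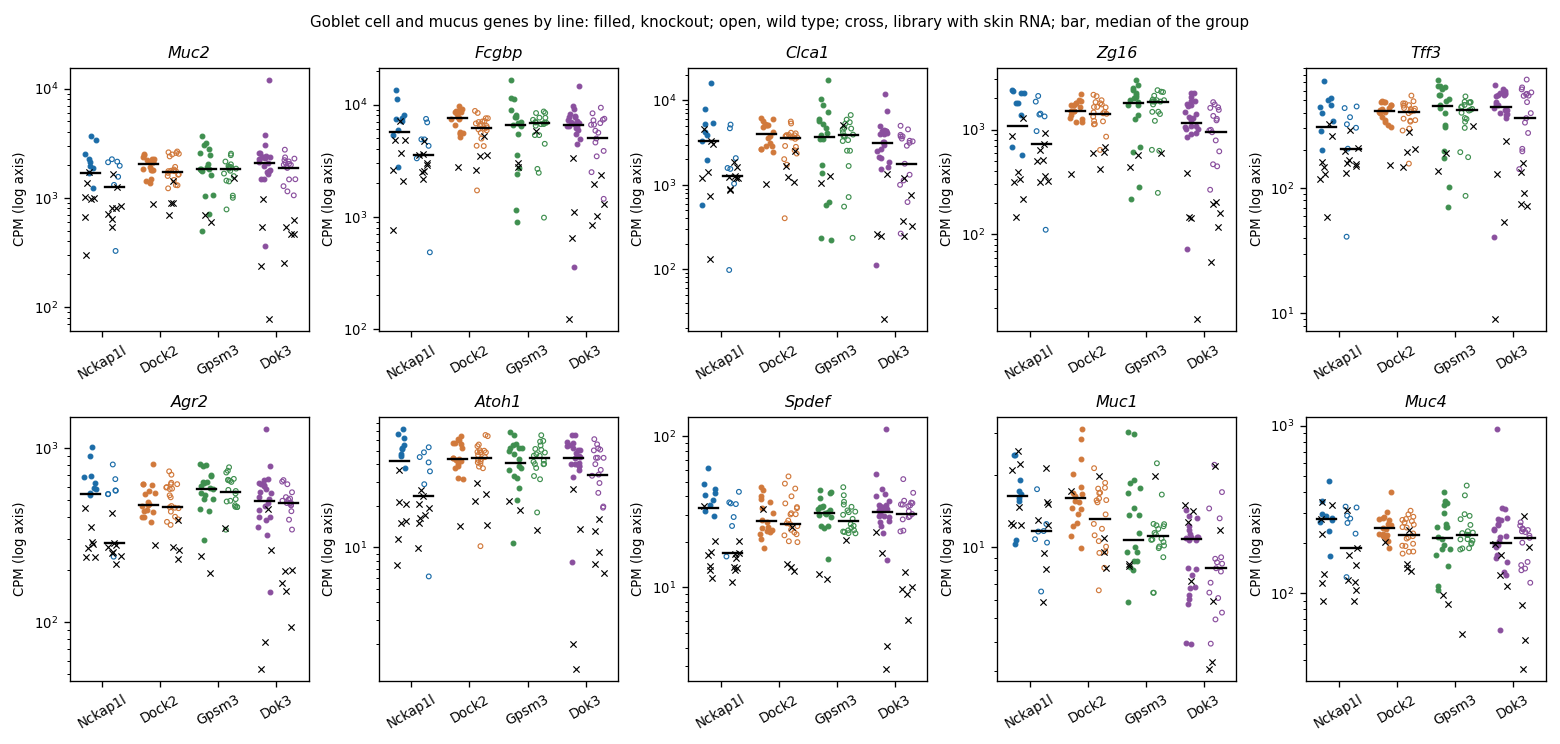
Levels of the 10 genes in each of the 160 libraries (CPM, log axis) by line, with knockouts as filled points, wild types as open points, libraries with skin RNA as crosses and the median of each group as a bar. Knockouts and wild types overlap for every gene in every line, most crosses lie low except for *Muc1*, and 1 *Dok3*-/- library stands at 12089 CPM of *Muc2*.

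*Muc2* encodes the gel-forming mucin that is the main building block of colonic mucus (ENSMUSG00000025515, chr7:141690340-141754693, plus strand, GRCm38). It ran from 300.2 to 3659 CPM (median 1706) in *Nckap1l*-/- mice and from 327 to 2257 (median 1264) in their wild types. *Dock2*-/- mice held 884 to 2538 CPM (median 2034) and their wild types 698 to 2657 (median 1724). The *Gpsm3* groups ranged from 498 to 3648 CPM (median 1842) and from 784 to 2539 (median 1849), and the *Dok3* groups from 78.1 to 12089 (median 2099) and from 251 to 2760 (median 1879). Every pair of groups overlapped. Both ends of the range were *Dok3*-/- libraries. Replicate 12 was lowest for *Muc2* and for 7 other of the 10 genes, and it was a library with skin RNA (skin list 9.14 on the log2 scale). It was also high in the list of neutrophil genes described below (6.99 on the log2 scale). Replicate 9 had 12089 CPM of *Muc2*, where the next library had 3730, and it was also the highest of the 160 in *Agr2* (1278 CPM), *Spdef* (111 CPM) and *Muc4* (951 CPM), whereas its *Clca1* was 1524 CPM. It held no skin RNA (skin list -0.74). *Muc2* made up 50.2% of the counts of the 10 genes in that library and 8.84% to 50.2% (median 12.9%) over all libraries.

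*Fcgbp*, *Clca1* and *Zg16* encode secreted proteins of the mucus layer: a large protein with repeated von Willebrand D domains, a metalloprotease that acts on mucus and a lectin that binds Gram-positive bacteria. *Fcgbp* (chr7:28071236-28120862, plus strand) ranged from 123 to 16685 CPM over all libraries, with group medians between 3520 in *Nckap1l* wild types and 7568 in *Dock2*-/- mice. *Clca1* (chr3:145003817-145032776, minus strand) spread more widely than any other of the 10 genes, with a residual SD of 1.41 on the log2 scale around group and sex means. It ran from 131 to 15960 CPM (median 3320) in *Nckap1l*-/- mice against 97.8 to 5170 (median 1270) in wild types, and from 1012 to 6217 (median 4010) in *Dock2*-/- mice against 402 to 5620 (median 3570). The *Gpsm3* groups held 224 to 17656 CPM (median 3673) in knockouts and 235 to 6707 (median 3864) in wild types, and the *Dok3* groups 25.8 to 11994 (median 3105) and 244 to 5007 (median 1778). The groups of each line overlapped, and 4 *Nckap1l*-/- libraries lay above all wild types of that line. *Zg16* (chr7:127050156-127087328, minus strand, overlapped on the other strand by *Gm22747*) ranged from 15.7 to 2991 CPM, with group medians of 732 to 1843.

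*Tff3*, a trefoil peptide that aids epithelial repair (chr17:31125306-31129646, minus strand), ranged from 9.05 to 734 CPM with group medians of 206 to 449.9. *Agr2*, a protein disulfide isomerase of the endoplasmic reticulum needed to make MUC2 (chr12:35992907-36004087, plus strand), ranged from 53.8 to 1278 CPM. Its group medians lay between 285 in *Nckap1l* wild types and 584 in *Gpsm3*-/- mice. With a residual SD of 0.63, *Agr2* varied far less than *Clca1*, *Zg16* (1.16) or *Fcgbp* (1.00).

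The transcription factors were counted at low levels. *Atoh1* (chr6:64729125-64731245, plus strand) ran from 7.48 to 71.5 CPM (median 42.0) in *Nckap1l*-/- mice and from 6.17 to 53.1 (median 23.5) in wild types, and from 14.4 to 64.5 (median 43.8) in *Dock2*-/- mice and 10.2 to 65.1 (median 44.3) in wild types. It ran from 10.8 to 68.5 CPM (median 41.1) in *Gpsm3*-/- mice against 13.3 to 64.9 (median 44.3), and from 1.33 to 65.2 (median 44.6) in *Dok3*-/- mice against 6.50 to 60.7 (median 33.7). Again the genotypes overlapped in each line. *Spdef* (chr17:27714352-27728955, minus strand) ranged from 2.90 to 111 CPM, with group medians of 16.99 in *Nckap1l* wild types to 33.4 in *Nckap1l*-/- mice and 26.4 to 31.7 in the other 6 groups.

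*Muc1* (chr3:89229057-89233381, plus strand) was lowest in level and had the smallest residual SD over all libraries (0.51). Without libraries with skin RNA, *Muc1* (0.48) varied more than *Agr2* (0.37), *Spdef* (0.38) and *Muc4* (0.45). It ran from 10.3 to 25.3 CPM (median 16.4) in *Nckap1l*-/- mice and from 5.84 to 21.4 (median 11.6) in wild types, and from 9.92 to 31.1 (median 15.97) in *Dock2*-/- mice and from 6.56 to 21.4 (median 13.1) in wild types. Medians of the *Gpsm3* and *Dok3* groups were 8.12 to 11.1 CPM. *Muc4* (chr16:32735886-32782391, plus strand) ranged from 35.4 to 951 CPM with group medians of 187 to 277. It overlaps *Muc20* on the other strand, and since the strand setting of the counting is not given in the sources used here, reads of these 2 mucins may not have been kept apart.

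Libraries with skin RNA had lower medians of all 10 genes in 3 lines and of 9 in the *Dok3* line. *Muc2* had a median of 848 CPM in 15 such libraries of the *Nckap1l* line against 2040 in the other 16, and 470 in 9 of the *Dok3* line against 2085 in the other 38. *Atoh1* had 17.2 against 48.2 CPM and 9.23 against 44.5 in the same lines. *Muc1* was the exception, with 11.8 CPM in libraries with skin RNA and 8.55 in the others of the *Dok3* line. No test was made between libraries sorted in this way, and each comparison was also computed without these libraries. In the *Nckap1l* line this also took away 13 of the 14 libraries of the first run of sample numbers. Skin RNA and run could therefore not be told apart there.

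Promoters are shown for 2 mucus genes that varied together, for *Agr2*, which kept closer to *Spdef*, and for both lineage factors, so that the letters near their starts can be compared. Windows of 250 bases before to 50 after the start, from RefSeq (GRCm38.p6), were used for 7 of the 10 genes, and those of *Tff3*, *Clca1* and *Zg16* were not analysed here. Capitals mark CAGCTG and CAGATG, E-box letters of the kind that basic helix-loop-helix factors such as ATOH1 bind, and AGGAT, the core that SPDEF prefers, on either strand (ATCCT on the other).
Muc2 (chr7:141690090-141690389, plus strand): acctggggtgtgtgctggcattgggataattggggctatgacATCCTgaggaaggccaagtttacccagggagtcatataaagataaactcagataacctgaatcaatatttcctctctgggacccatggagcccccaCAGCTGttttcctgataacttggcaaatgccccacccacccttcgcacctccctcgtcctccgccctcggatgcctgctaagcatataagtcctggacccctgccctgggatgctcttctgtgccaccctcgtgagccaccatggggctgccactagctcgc
Fcgbp (chr7:28070986-28071285, plus strand): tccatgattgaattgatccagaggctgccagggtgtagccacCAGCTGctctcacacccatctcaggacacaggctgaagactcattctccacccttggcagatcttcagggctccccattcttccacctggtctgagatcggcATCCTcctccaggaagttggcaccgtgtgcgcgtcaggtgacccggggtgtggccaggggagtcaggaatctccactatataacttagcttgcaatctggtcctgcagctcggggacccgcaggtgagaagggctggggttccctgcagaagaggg
Agr2 (chr12:35992675-35992974, plus strand): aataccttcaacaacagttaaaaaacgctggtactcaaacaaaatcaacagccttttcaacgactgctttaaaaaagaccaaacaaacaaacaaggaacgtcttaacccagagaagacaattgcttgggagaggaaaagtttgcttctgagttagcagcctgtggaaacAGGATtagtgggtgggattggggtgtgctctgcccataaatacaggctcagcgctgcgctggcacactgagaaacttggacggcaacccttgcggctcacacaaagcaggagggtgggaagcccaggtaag
Spdef (chr17:27728902-27729201, minus strand): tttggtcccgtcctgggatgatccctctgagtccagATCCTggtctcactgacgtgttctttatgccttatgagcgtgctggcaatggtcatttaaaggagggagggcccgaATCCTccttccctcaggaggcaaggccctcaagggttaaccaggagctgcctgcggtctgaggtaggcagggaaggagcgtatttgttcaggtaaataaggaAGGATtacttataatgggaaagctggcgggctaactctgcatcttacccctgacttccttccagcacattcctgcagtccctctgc
Atoh1 (chr6:64728875-64729174, plus strand): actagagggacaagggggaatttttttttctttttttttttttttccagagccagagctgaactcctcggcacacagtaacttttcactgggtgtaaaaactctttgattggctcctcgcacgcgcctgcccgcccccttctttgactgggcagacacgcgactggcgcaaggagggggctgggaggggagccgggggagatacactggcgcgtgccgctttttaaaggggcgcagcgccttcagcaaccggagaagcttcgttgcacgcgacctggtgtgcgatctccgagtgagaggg
*Muc2* and *Fcgbp* each held 1 CAGCTG, at -112 and -208 from the start, and 1 AGGAT. *Agr2* held 1 AGGAT at -81, and no E-box of these letters. *Spdef* held 3 AGGAT, and the *Atoh1* window held neither motif. The *Muc1* window held 1 CAGATG and that of *Muc4* 1 AGGAT. Among 32851 promoter windows of the same length, 16.3% held CAGCTG, 17.2% CAGATG and 41.0% AGGAT, so single matches of this kind are common. A match describes letters only, and none was tested as a binding site.

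Across the 160 libraries, around the means of each group and sex, the 10 genes did not vary as 1 block. *Clca1* and *Fcgbp* kept the closest company (r = 0.964 across 160 libraries, 0.956 across the 128 without skin RNA), followed by *Tff3* and *Zg16* (0.962 and 0.956) and *Fcgbp* and *Tff3* (0.958 and 0.941). *Agr2* and *Spdef* formed a second pair (0.929 and 0.794). Between the pairs the correlation over all lines was lower once libraries with skin RNA were left out: *Clca1* and *Agr2* had r = 0.552 in all libraries and 0.283 without them, and *Clca1* and *Spdef* 0.480 and 0.124. *Atoh1* and *Spdef*, the 2 lineage factors, had 0.725 and 0.284. The lines differed in this, since *Clca1* and *Agr2* had 0.608 with and 0.658 without these libraries in the *Nckap1l* line, 0.362 and -0.06 for *Dock2*, 0.196 and 0.140 for *Gpsm3* and 0.722 and 0.362 for *Dok3*. *Muc2* stood between, with 0.820 to *Clca1* and 0.855 to *Agr2* (0.754 and 0.676 without libraries with skin RNA). *Muc1* reached at most 0.263 with any other of the 10 genes in all libraries. These correlations describe libraries that share depth and tissue makeup, and the median over the 45 pairs was 0.71 in all libraries and 0.54 without skin RNA.

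The nearest partners of each gene were taken from all 19849 genes compared. *Fer1l6* and *Capn9* followed *Fcgbp* (r = 0.970 and 0.967, 160 libraries) and *Zg16* (0.924 for each). *Fer1l6* (0.948) and *Scin*, an actin-severing protein (0.934), followed *Clca1* after *Fcgbp*, and *Sval1* (0.966) followed *Tff3*. *Hepacam2* (0.956), *Ern2* (0.948), a stress sensor of the endoplasmic reticulum in mucous cells, and *Hsd11b2* (0.947) were nearest to *Atoh1*. *Slc12a8* (0.941) and *Pmm2* (0.932), which makes a sugar phosphate for glycosylation, were nearest to *Agr2*. *Foxa3* (0.918) was nearest to *Spdef* after *Agr2*, and *Slc12a8* (0.904) came next. Beyond its 2 followers, *Muc2* was closest to *Ptprn2* (0.937). *Muc4* followed *Tspan13* (0.733), *Kctd14* (0.728) and *Ceacam1* (0.714), and *Muc1* had only weak partners, with *Gsdmd* (0.467), *Nckap5* (0.466) and *AW112010* (0.432) first.

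**Figure D2:**
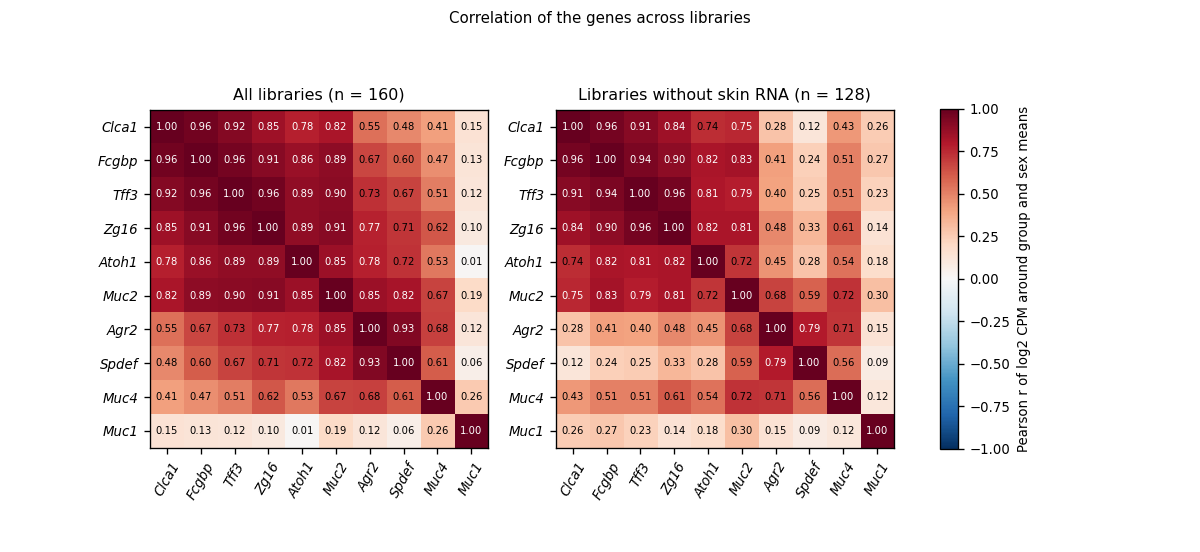
Pearson correlation of each pair of the 10 genes on the log2 CPM scale around group and sex means, in all 160 libraries (left) and in the 128 without skin RNA (right), colored from -1 to 1. *Clca1*, *Fcgbp*, *Tff3*, *Zg16* and *Atoh1* stay between 0.738 and 0.956 with each other on the right, where *Agr2* and *Spdef* have 0.283 and 0.124 to *Clca1*.

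The comparison of knockout with wild type asked whether mucus genes differed by genotype in the colons of each line. None of the 10 genes was called in any line, a call being an adjusted p below 0.05 in the quasi-likelihood test of edgeR. Few genes of any kind were called, 0% of those tested in the *Nckap1l* line, 0.034% for *Dock2* (0.00567% as higher and 0.0283% as lower), 0.00569% for *Gpsm3* and 0% for *Dok3*, against 807, 900, 854 and 386 genes at an unadjusted p below 0.05. Among the 10 genes, 2, 3, 0 and 0 had an unadjusted p below 0.05. DESeq2 called 21 genes in the *Nckap1l* line, *Muc1* among them, 70 for *Dock2*, 4 for *Gpsm3* and 3 for *Dok3*, and limma-voom called 0, 0, 1 and 0. The point estimates were above 0 for 10, 10, 7 and 10 of the 10 genes, with medians of 0.37, 0.16, 0.06 and 0.30 on the log2 scale where the median over all genes was between 0.00 and 0.01 in size. Since the 10 genes vary together across libraries, these signs are not independent of each other. In the *Gpsm3* line, limma-voom put the estimate above 0 for 2 of 10.

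*Muc1* had the smallest adjusted p of the 10 genes in the *Nckap1l* and *Dock2* lines. Its log2 difference was 0.66 (SE 0.16, edgeR adjusted p = 0.317) in the *Nckap1l* line, where 4 knockouts lay above all wild types, and 0.40 (SE 0.11, adjusted p = 0.226) for *Dock2*, where 3 did. With DESeq2 the *Nckap1l* difference was 0.66 with an adjusted p of 0.0343, with 2 surrogate variables 0.68 with 0.0347, and over 12 alternatives the adjusted p ran from 0.0343 to 0.991. Over 11 alternatives for *Dock2* it ran from 0.0636 to 0.670. *Clca1* differed by 1.11 (SE 0.51, edgeR adjusted p = 1.0) in the *Nckap1l* line, an interval of 0.12 to 2.10. The other estimates of *Clca1* were 0.43 (SE 0.20) in the *Dock2* line, 0.27 (SE 0.41) for *Gpsm3* and 0.56 (SE 0.40) for *Dok3*. *Muc2* differed by 0.40 (SE 0.31), 0.17 (SE 0.13), 0.10 (SE 0.19) and 0.53 (SE 0.31) in the same order of lines. The *Dok3* value for *Muc2* (interval -0.07 to 1.14) was 0.26 (SE 0.27) without replicate 9 of the knockouts, and 0.15 (SE 0.21) with the skin list as a covariate. Without libraries with skin RNA, no gene of the 10 was called in any line and the medians were 0.58, 0.09, 0.13 and 0.23. With the skin list as a covariate instead they were 0.38, 0.08, 0.06 and 0.05, and with 2 surrogate variables 0.41, 0.05, 0.21 and 0.04.

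The difference between knockout and wild type was also tested for change between lines, sexes and runs of sample numbers. It was called to differ between the 4 lines for 0.539% of all genes and none of the 10 (edgeR, 1071 genes at an unadjusted p below 0.05). Between sexes in the *Dock2* line 0.198% of genes were called and none of the 10. Between the 2 runs of sample numbers, 0.342% of genes in the *Gpsm3* line and 0% for *Dok3* were called, and again none of the 10. None of the 10 was called in any of the 3 alternatives of each test, and 790, 1306 and 1115 genes had an unadjusted p below 0.05 in the last 3. The lowest edgeR adjusted p of the 10 in the 4 tests was 0.683, for *Clca1* in the *Gpsm3* line.

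**Figure D3:**
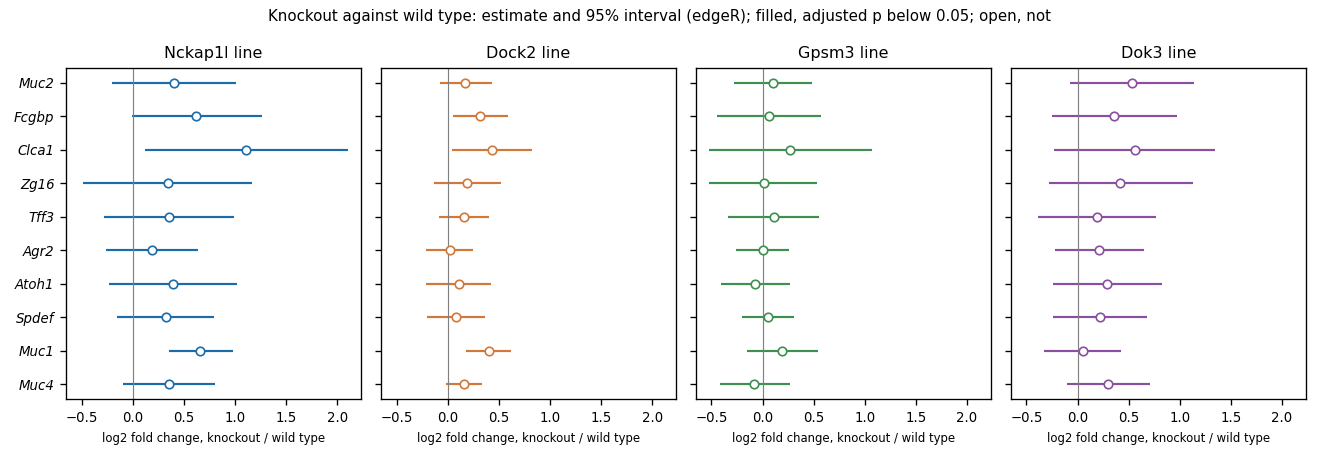
Log2 fold change of each gene between knockout and wild type in each line, with an approximate 95% interval computed from the edgeR test. All points are open, since no gene had an adjusted p below 0.05, and the widest interval is that of *Clca1* in the *Nckap1l* line (0.12 to 2.10).

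Other genes of the goblet cell were looked at in lists. Among 17 or 18 further secreted and granule proteins tested per line, only *Ang4*, an antimicrobial angiogenin, was called, with a log2 difference of 2.59 (SE 0.40, edgeR adjusted p = 0.00164) in the *Dock2* line. It was 2.60 without libraries with skin RNA and lost its call with limma-voom (2.33, adjusted p = 0.122) and in males alone (2.74, adjusted p = 0.092). *Ang4* also had the smallest p of this list in the *Nckap1l* line at 6.12 (SE 1.27, edgeR adjusted p = 0.317), where DESeq2 called it. Angiogenins are a family of close copies, so reads may have been shared between them. None of 29 to 31 genes of mucin glycosylation and folding, 14 transcription factors of the secretory lineage, 30 genes of the Notch pathway or 11 cytokine signals linked to mucus was called in any line. No marker gene of other cells was called. In the *Nckap1l* line the 6 tested B cell and plasma cell genes all had estimates below 0 (median -2.54), and so did all 7 for *Dock2* (median -0.86). The median differences in the 4 lines in the order above were -0.14, -0.46, 0.89 and 0.43 for the neutrophil list, 0.58, -0.48, 0.02 and -0.80 for the skin list and 0.28, -1.72, 1.28 and -1.10 for the striated muscle list. With the neutrophil list as a covariate none of the 10 genes was called, and the part of B cells and muscle was not tested.

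Females and males could be compared in 2 lines. *Muc1* was higher in females of the *Dock2* line. Among wild types it ran from 11.9 to 21.4 CPM (median 16.4) in 12 females and from 6.56 to 17.7 (median 9.76) in 12 males, and among *Dock2*-/- mice from 14.5 to 28.4 (median 16.96) in 8 females and from 9.92 to 31.1 (median 14.1) in 10 males. The sexes overlapped in both genotypes, with the females shifted up. The log2 difference was 0.53 (SE 0.11, edgeR adjusted p = 0.00177), and it was called in all 5 alternatives (0.49 to 0.68). Most females of the *Dock2* line had later sample numbers than all of its males, and the paper states that cages were shared by sex. Sex, sample order and cage could therefore not be told apart in the *Dock2* comparison of females with males. No other of the 10 genes was called in that comparison, in which 9.75% of all genes were called (4.26% higher in females and 5.50% lower). Without libraries with skin RNA, *Agr2* was also called, lower in females (-0.28, SE 0.09, edgeR adjusted p = 0.0217). It was -0.20 (adjusted p = 0.286) with all libraries. In the *Nckap1l* line 0.178% of all genes (0.106% higher in females and 0.0724% lower) and none of the 10 were called, nor were any of the 10 in its 6 alternatives (2823 genes had an unadjusted p below 0.05), and *Muc1* differed by 0.46 (SE 0.16, edgeR adjusted p = 0.185). Sex and run of sample numbers overlapped in that line, where 9 of 12 females but 5 of 19 males were in the run rich in skin RNA, and *Muc1* had 0.38 (adjusted p = 0.673) with the run as a covariate. Of the further secreted proteins, *Muc5b*, a gel-forming mucin more typical of the airway and of salivary glands, was called as higher in females in both lines, by 4.14 (SE 0.89, edgeR adjusted p = 0.038) in the *Nckap1l* line and 2.58 (SE 0.77, adjusted p = 0.0263) for *Dock2*. Without libraries with skin RNA these differences were 0.36 (adjusted p = 0.799) and 0.23 (adjusted p = 0.227), and the call was also lost with limma-voom in both lines. The genotype difference of *Muc5b* between the sexes of the *Dock2* mice was 4.94 (SE 1.12, edgeR adjusted p = 0.0385) and turned to -0.38 (adjusted p = 1.0) without these libraries. *Retnlb*, a goblet cell resistin-like protein, was lower in females of the *Dock2* line by -1.87 (SE 0.62, edgeR adjusted p = 0.0455), a call lost with the neutrophil list as a covariate (-0.94, adjusted p = 0.258), without a filter and with limma-voom. In the same fits the striated muscle list had a median female difference of -1.89 in the *Nckap1l* line and -2.91 for *Dock2*, the neutrophil list -0.15 and -1.27 and the skin list 1.14 and 0.78. *Muc1* of the *Dock2* mice was as high with the neutrophil list as a covariate (0.54) and 0.49 without libraries with skin RNA, and the part of muscle was not tested.

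The wild types of the *Dok3* and *Gpsm3* lines were set side by side, all labelled male and all taken on day 10. Strain (129 against C57BL6/J), labelled DSS dose (3.5% against 3%) and the line itself cannot be told apart here. The paper states that *Dok3* mice had 3% in a first round and 3.5% afterwards, so the dose of each *Dok3* mouse is uncertain. *Zg16* ran from 54.2 to 1823 CPM (median 941) in 21 *Dok3* wild types and from 249 to 2370 (median 1843) in 20 *Gpsm3* wild types. The groups overlapped, and *Zg16* was lower in the *Dok3* wild types by -0.84 on the log2 scale (SE 0.32, edgeR adjusted p = 0.0453). No other of the 10 genes was called, where 26.1% of all genes were called and 11.8% as lower. The estimates of all 10 genes were below 0, with a median of -0.34. The *Zg16* call was lost in 6 of 10 alternatives, with -0.55 (adjusted p = 0.109) without libraries with skin RNA, which were 5 of the *Dok3* and 1 of the *Gpsm3* wild types, and -0.38 (adjusted p = 0.279) with the pan-epithelial list as a covariate. Skin, striated muscle and neutrophil lists had median differences of 1.60, 2.53 and 1.91 in the same comparison.

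With the DSS status of each mouse not given, the libraries were described along a level measured in them. Neutrophils enter the colon wall in colitis, and the mean log2 CPM of 11 neutrophil genes such as *S100a8* and *Csf3r* ran from -0.71 to 6.87 in the *Nckap1l* line, -0.86 to 7.16 for *Dock2*, -1.03 to 6.16 for *Gpsm3* and -1.35 to 8.47 for *Dok3*. No mouse was assigned to a treatment by this level. The 32 libraries with skin RNA had levels of 0.93 to 6.99 (median 1.58). The other 128 had -1.35 to 8.47 (median 0.54). Its r with the skin list was 0.24 in the *Nckap1l* line, 0.28 for *Dock2*, 0.13 for *Gpsm3* and 0.37 for *Dok3*. The level was thus not fully separate from skin RNA, and how much of it came from neutrophils was not tested. The slope of each gene on this level, with genotype and sex in the fit, is a log2 difference per log2 unit of neutrophil marker level. It is an association between measures of the same libraries, and CPM makes every gene a share of its library.

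*Clca1*, *Fcgbp*, *Tff3* and *Atoh1* were lower at higher neutrophil marker level in all 4 lines. In the *Dock2* line, the library with the lowest neutrophil level (a knockout) had 5251 CPM of *Clca1*, 7491 of *Fcgbp*, 435 of *Tff3* and 40.3 of *Atoh1*, and the library with the highest (replicate 13 of the wild types) had 402, 1715, 157 and 10.2. The same 2 libraries had 1812 and 1309 CPM of *Muc2*, 403 and 619 of *Agr2*, and 27.0 and 48.5 of *Spdef*. So between these 2 libraries the secreted proteins and *Atoh1* were lower at the high end while *Agr2* and *Spdef* were higher. In the other 3 lines *Agr2* and *Spdef* were lower in the library at the high end too. Each end is a single library, and slopes over all libraries of a line could differ from it. Those slopes were 0.00 for *Agr2* and 0.03 for *Spdef* in the *Gpsm3* line, and -0.01 for *Muc2* in the *Dock2* line. The ends of the *Nckap1l* line held 587.5 and 237 CPM of *Agr2* and 35.1 and 15.99 of *Spdef*, and those of the *Gpsm3* mice 433 and 294 of *Agr2*. In the *Dok3* line the ends held 3270 and 114 CPM of *Clca1*, 55.7 and 7.82 of *Atoh1*, 433 and 149.5 of *Agr2* and 30.5 and 15.2 of *Spdef*, with all 4 lower at the high end.

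The slope of *Clca1* was -0.38 (SE 0.10) in the *Nckap1l* line, -0.23 (SE 0.05) for *Dock2*, -0.44 (SE 0.09) for *Gpsm3* and -0.44 (SE 0.07) for *Dok3*, with edgeR adjusted p of 0.00178, 0.000248, 0.000111 and 2.1e-07. Those of *Fcgbp* were -0.23, -0.13, -0.30 and -0.30, of *Tff3* -0.22, -0.12, -0.26 and -0.29, and of *Atoh1* -0.22, -0.14, -0.18 and -0.23, each with an adjusted p of at most 0.00533. *Zg16* was called in 3 lines (-0.28, -0.31 and -0.27) and had -0.10 (edgeR adjusted p = 0.0799) in the *Dock2* line. In all, 5, 6, 7 and 5 of the 10 genes were called in the 4 lines, where 48.3%, 56.1%, 54.4% and 63.8% of all genes were. Lower calls were 5, 4, 7 and 5 of the 10, against 24.9%, 27.3%, 26.1% and 30.5% of all genes, and higher calls 0, 2, 0 and 0 against 23.4%, 28.8%, 28.3% and 33.2%.

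The remaining genes did not share this course. *Agr2* had slopes of -0.06, 0.07, 0.00 and -0.05, of which the *Dock2* value was called (SE 0.03, edgeR adjusted p = 0.0423). *Spdef* had -0.04, 0.14, 0.03 and -0.04, again called in the *Dock2* line (SE 0.03, adjusted p = 0.000321). *Muc2* was called only in the *Gpsm3* line, at -0.17 (SE 0.04, adjusted p = 0.000666). Its slope in the *Dok3* line was -0.05 (SE 0.06, adjusted p = 0.501), and -0.18 (SE 0.05, adjusted p = 0.00397) without replicate 9 of the knockouts, the library with the highest *Muc2*, at a neutrophil level of 4.95. *Muc4* was called in the *Gpsm3* line (-0.11, SE 0.04, edgeR adjusted p = 0.0203), and *Muc1* in none, with slopes of 0.04, 0.01, -0.01 and 0.06.

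**Figure D4:**
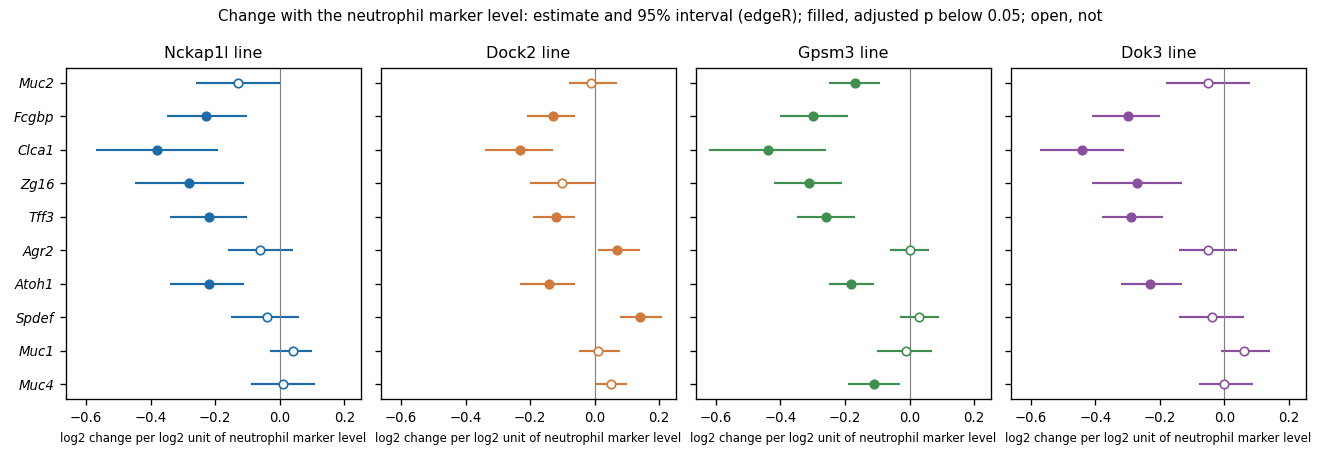
Slope of each gene on the neutrophil marker level in each line (log2 change per log2 unit), filled where the adjusted p was below 0.05. Bars are approximate 95% intervals computed from the edgeR test. *Clca1*, *Fcgbp*, *Tff3* and *Atoh1* are filled and below 0 in all 4 lines, and *Agr2* and *Spdef* are filled above 0 in the *Dock2* line only, at 0.07 and 0.14.

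A test of whether the slope differed between lines called 10.1% of all genes and none of the 10 by edgeR (lowest adjusted p 0.134, for *Spdef*; 5572 genes at an unadjusted p below 0.05). It called *Fcgbp* (adjusted p = 0.0431) and *Spdef* (0.018) with limma-voom and *Muc2* (0.0107) without libraries with skin RNA. Slopes of *Agr2* and *Spdef* depended on how the epithelial share was handled. The neutrophil level went with the pan-epithelial list at r = -0.55, 0.05, -0.16 and -0.59 in the 4 lines, and with that list as a further covariate *Spdef* was called as higher in all 4 (0.13, 0.14, 0.05 and 0.12, with edgeR adjusted p of 0.00762, 7.13e-05, 0.0356 and 0.000589) and *Agr2* in 3 (0.10, 0.07 and 0.11, the *Gpsm3* value being 0.02). In the same fits *Clca1* was called as lower in all 4 lines (-0.30, -0.22, -0.42 and -0.27), and *Atoh1* in the *Dock2*, *Gpsm3* and *Dok3* lines (-0.14, -0.17 and -0.09), with -0.08 (edgeR adjusted p = 0.223) in the *Nckap1l* line. There the calls of *Fcgbp* (-0.13), *Tff3* (-0.09) and *Zg16* (-0.09) were lost too, as was that of *Zg16* in the *Dok3* line (-0.06). With libraries with skin RNA left out as well, *Spdef* was called in the *Dock2* and *Dok3* lines only (0.16 and 0.13) and had 0.06 and 0.04 (edgeR adjusted p = 0.18 and 0.0567) in the *Nckap1l* and *Gpsm3* lines, and *Agr2* was called in the same 2 lines (0.10 and 0.12). That fit called *Clca1* (-0.45), *Atoh1* (-0.12), *Zg16* (-0.22) and *Tff3* (-0.19) as lower in the *Nckap1l* line, so there *Fcgbp* alone of the 5 missed the threshold (-0.21, edgeR adjusted p = 0.0539).

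Correlations across the libraries of a line were computed as well, over 40 relations with p adjusted among them. For *Clca1*, Pearson's r was -0.66 in 31 libraries of the *Nckap1l* line (permutation p = 2e-05, adjusted 7.27e-05), -0.63 in 42 of the *Dock2* line (permutation p = 4e-05, adjusted 0.000123), -0.79 in 40 of the *Gpsm3* line and -0.80 in 47 of the *Dok3* line (permutation p = 1e-05, adjusted 5e-05 in both, the smallest the resamples can give). Spearman's rho was -0.64, -0.49, -0.60 and -0.73 with adjusted permutation p of 0.000489, 0.00233, 0.0003 and 0.000133. Leaving out the 2 libraries farthest from the median neutrophil level gave r of -0.66, -0.40, -0.70 and -0.78, and leaving out libraries with skin RNA -0.82, -0.67, -0.82 and -0.80. In the *Dock2* line the slopes of *Fcgbp*, *Tff3* and *Atoh1* lost their calls without those 2 libraries (replicate 13 of the wild types and replicate 13 of the knockouts), at -0.05, -0.06 and -0.06, whereas *Clca1* (-0.13), *Agr2* (0.12) and *Spdef* (0.16) stayed called. Pearson's r without those 2 was -0.28, -0.34 and -0.21 for *Fcgbp*, *Tff3* and *Atoh1*. Spearman's rho over all 42 libraries was -0.36, -0.49 and -0.28, with adjusted permutation p of 0.0337, 0.00253 and 0.107.

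Within runs of sample numbers, r for *Clca1* was -0.69 and -0.91 in the 2 runs of the *Gpsm3* line, and -0.89 and -0.53 in those of the *Dok3* line. In the *Nckap1l* line it was -0.87 in 9 libraries and -0.29 in 8, and -0.03 in the run of 14 libraries of which 13 held skin RNA, so the relation did not hold in that run. *Fcgbp*, *Tff3* and *Zg16* had r of 0.09, 0.06 and 0.01 there, and *Muc1* and *Muc4* 0.80 and 0.83. The *Dock2* labels form a single run.

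**Figure D5:**
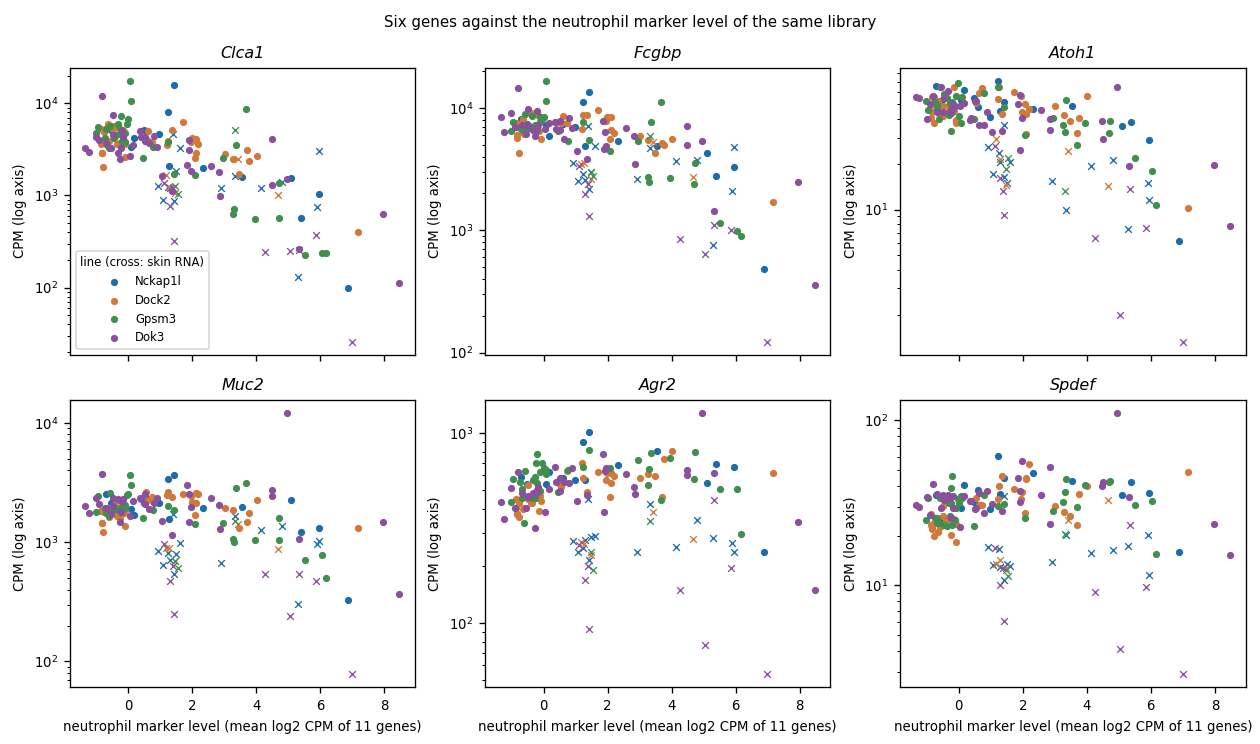
CPM (log axis) of 6 genes in each library against the neutrophil marker level of that library (mean log2 CPM of 11 genes), colored by line, with libraries with skin RNA as crosses. *Clca1*, *Fcgbp* and *Atoh1* slope down in every line (slopes of -0.13 to -0.44), *Agr2* and *Spdef* have slopes of -0.06 to 0.14, and the isolated *Muc2* point is the *Dok3*-/- library at 12089 CPM.

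Since every value is a share of its library, differences between 2 genes of the same library were also taken, on which the scaling of a library has almost no effect. The pairs were picked after the slopes had been seen, so their values describe and do not test. The log2 difference of *Clca1* minus *Agr2* went down with the neutrophil level in each line, with r of -0.67, -0.82, -0.78 and -0.85 (slopes -0.387, -0.341, -0.549 and -0.425). For the 2 lineage factors, *Atoh1* minus *Spdef*, r was -0.77, -0.77, -0.80 and -0.82 (slopes -0.203, -0.280, -0.213 and -0.194). Without libraries with skin RNA these were -0.90, -0.75, -0.81 and -0.78, and without the 2 farthest libraries -0.74, -0.62, -0.74 and -0.84. In each of the 7 runs of sample numbers of the 3 lines with several runs, *Atoh1* minus *Spdef* had an r between -0.71 and -0.98, the run rich in skin RNA included (-0.71), whereas *Clca1* minus *Agr2* had -0.14 in that run and -0.40 to -0.94 in the others.

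Other goblet cell genes were also called in both directions along the neutrophil level. Of the further secreted and granule proteins, 10 of 17, 6 of 18, 10 of 17 and 13 of 18 tested were called as lower in the *Nckap1l*, *Dock2*, *Gpsm3* and *Dok3* lines, and 2, 4, 3 and 4 as higher. Over all genes the lower shares were 24.9%, 27.3%, 26.1% and 30.5% and the higher shares 23.4%, 28.8%, 28.3% and 33.2%, so the *Dock2* counts were near the background. *Fer1l6*, a partner of *Clca1* above, was among the 3 lower genes of smallest p for *Nckap1l*, *Dock2* and *Gpsm3* (-0.30, -0.20 and -0.36). *Mptx1*, a mucosal pentraxin, had -1.08 in the *Nckap1l* line and -0.68 for *Dock2*. *Retnlb* went the other way, at 0.77, 0.56 and 0.81 in the *Dock2*, *Gpsm3* and *Dok3* lines, as did the potassium channel *Kcnk6* in all 4 (0.11, 0.21, 0.14 and 0.08). All of these were called by edgeR, with adjusted p of at most 0.00811.

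Genes listed for mucin glycosylation and folding were called in both directions: 9, 14, 14 and 11 of 29, 30, 29 and 31 were called as higher and 8, 3, 4 and 8 as lower. The list includes folding genes such as *Hspa5* and *Pdia4* that are not particular to goblet cells, so these counts cover other cells of the tissue as well. The shares of all genes were 23.4%, 28.8%, 28.3% and 33.2% as higher and 24.9%, 27.3%, 26.1% and 30.5% as lower. Both counts of the *Dok3* line and the lower count of the *Nckap1l* line were therefore near the background. The sialyltransferase *St3gal1* was higher in all 4 lines (0.39, 0.35, 0.32 and 0.36) and the branching enzyme *Gcnt4* in the *Dock2*, *Gpsm3* and *Dok3* lines (0.45, 0.33 and 0.34), whereas *St3gal4* was lower in the *Nckap1l*, *Dock2* and *Gpsm3* lines (-0.24, -0.24 and -0.20). Both sialyltransferases are also made by other cells of the colon. *Ern2*, a neighbor of *Atoh1* above, was lower in 3 lines (-0.20 for *Nckap1l*, -0.12 for *Gpsm3* and -0.17 for *Dok3*). Named values had an edgeR adjusted p of at most 0.000242. With the pan-epithelial covariate the calls of *St3gal4* for *Nckap1l* (-0.11) and *Ern2* for *Dok3* (-0.04) were lost.

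Of 14 transcription factors listed for the secretory lineage, 9, 4, 6 and 10 were called as lower and 0, 2, 2 and 0 as higher. The list also held factors of the wider epithelium such as *Hnf4a*, and *Elf3*, which was in the pan-epithelial list too. Its counts are therefore not counts for secretory cells alone. Here and for the Notch pathway below, the lower shares of all genes were 24.9%, 27.3%, 26.1% and 30.5%. The higher shares of all genes were 23.4%, 28.8%, 28.3% and 33.2%, and the lower count of factors in the *Dock2* line was near the background. *Foxa2*, a forkhead factor of goblet and enteroendocrine cells, was lower in the *Nckap1l*, *Dock2* and *Gpsm3* lines (-0.29, -0.18 and -0.19), and *Hnf4a*, which is expressed throughout the epithelium, in all 4 (-0.19, -0.08, -0.12 and -0.20). *Neurog3*, which specifies enteroendocrine cells, was higher in the *Dock2* and *Gpsm3* lines (0.20 and 0.32). In the Notch pathway, whose activity holds *Atoh1* down, 13, 15, 13 and 19 of 30 genes were called as higher and 4, 4, 4 and 5 as lower. The Notch target *Hes1* was among the lower genes in all 4 lines (-0.11, -0.06, -0.10 and -0.10), and the protease *Adam17*, which has many substrates besides Notch, among the higher (0.13, 0.07, 0.09 and 0.11). Several Notch receptors are made by vessels and immune cells, as *Notch4* by endothelium, and *Notch4* was higher in the *Dock2* and *Gpsm3* lines (0.18 and 0.12). The *Dock2* calls of *Neurog3* and *Hes1* were lost without the 2 farthest libraries (0.15 and -0.05).

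Of 11 cytokine signals linked to mucus, 5, 5, 5 and 6 were called as higher and 2, 2, 1 and 1 as lower. *Il33*, an alarmin, was higher at 0.61, 0.48, 0.48 and 0.36, and *Il4ra*, a receptor chain for IL-4 and IL-13, at 0.42, 0.38, 0.38 and 0.40. *Stat3* was also higher (0.14, 0.11, 0.12 and 0.14), and *Il22ra1*, the epithelial chain of the IL-22 receptor, was lower (-0.09, -0.07, -0.09 and -0.16). The transmembrane mucin *Muc3* was lower in all 4 lines (-0.24, -0.10, -0.18 and -0.22). For comparison, 8, 9, 7 and 8 of 10 genes of absorptive colonocytes were called as lower, and 0, 1, 0 and 0 as higher. These shares stand against 24.9% to 30.5% of all genes called as lower and 23.4% to 33.2% as higher, and the lists were chosen with earlier results of these data known.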

How the data were processed

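RNA of distal colon was read as 1 library per mouse (ribosome-depleted, stranded kit). The files deposited by the authors hold raw read counts per Ensembl gene, unnormalized, from reads placed on mm10 by STAR and assigned by featureCounts of the Subread package, per the labels (versions and strand setting not given in the sources used here). GENCODE M21 (GRCm38) gave names, positions and lengths for 37693 of 39179 genes. Groups follow line and genotype in the labels.

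Counts were scaled by TMM, filtered with filterByExpr and tested by the quasi-likelihood F-test (edgeR 4.0.16, R 4.3.3), each line alone, with sex where both were present, and adjusted by Benjamini-Hochberg over all genes tested (threshold 0.05). Log2 CPM used a prior count of 2. Correlations were tested with 100000 permutations (scipy 1.17.1, Python 3.11.15). The tests were run on simulated counts with large planted changes and without mixed treatment or skin RNA. That run does not show how they perform for small differences in mixed libraries. Named genes were all 10, from each further list the called genes (the 3 of smallest p per direction where more were called, or the 1 of smallest p where none was), and the 3 nearest partners of each gene. The genes and lists were chosen with earlier results of these data known. The paper describes littermates of mixed genotype that shared cages by age and sex. Cage and litter were not in the fits, so p-values measure the spread between these mice taken as independent. Alternatives were DESeq2 1.42.0, limma-voom (limma 3.58.1), DESeq2-type size factors, no filter, *S100a8* alone in place of the list, neighboring runs of sample numbers, without the 2 farthest libraries, 2 surrogate variables (sva 3.50.0), further covariates, males or wild types only, and, added after seeing the data, leaving out libraries with skin RNA (skin list of 4 or more), mismatched sex markers or *Dok3*-/- replicate 9.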

Additional observations from a re-analysis of the deposited data

How the results depend on the processing

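Recomputed counts of the 10 genes called stayed within 1.5 times the main value in 107 instances. Another 16 values were listed as moved, among them the median correlation, to which that rule was not applied. Among single-gene values, 19 gained a call, 21 lost one and 10 reversed, with a call in the main result, the alternative or both. The other 1190 were counted as the same, and these include changes of sign where neither fit was called. They also include 80 group means with CPM on total counts, which have no direction or threshold. All group means stayed within the spread between mice with CPM on total counts. The causes of the changes were not tested.

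Knockout against wild type in the *Nckap1l* line called 1 of the 10 genes with DESeq2 and 1 with 2 surrogate variables (none otherwise). Female against male in the *Dock2* line called 2 without libraries with skin RNA. *Dok3* against *Gpsm3* wild types called 2 with limma-voom and 0 without a filter, with neighboring runs of sample numbers, with the neutrophil covariate or without libraries with skin RNA. Slopes called 3 in the *Nckap1l* line with the pan-epithelial covariate, 3 in the *Dock2* line without the 2 farthest libraries, and 8 in the *Dok3* line with limma-voom or with the pan-epithelial covariate, with or without libraries with skin RNA. Slopes differing between lines were 2 with limma-voom and 1 without libraries with skin RNA. The median correlation of the pairs was 0.54 without them.

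Reversed values were, between the wild types, *Tff3* at 0.41 (skin RNA left out, neutrophil covariate) and *Spdef* at 0.30 (pan-epithelial covariate). With the pan-epithelial covariate, slopes became 0.10 (*Agr2*) and 0.13 (*Spdef*) in the *Nckap1l* line, and 0.11 (*Muc2*), 0.11 (*Agr2*) and 0.12 (*Spdef*) in the *Dok3* line, where leaving out skin RNA as well gave 0.14, 0.12 and 0.13.

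Counts over all genes moved far more. Over the alternatives, genes called for knockout against wild type ran from 0 to 82 (*Nckap1l*), 0 to 93 (*Dock2*), 1 to 32 (*Gpsm3*) and 0 to 15 (*Dok3*), and for the sexes from 5 to 105 (*Nckap1l*, 32 in the main result) and 341 to 3202 (*Dock2*, 1721). The wild-type comparison called 696 to 5316 (4588), and the tests of the genotype difference 1 to 273 between lines (107), 0 to 294 between sexes (35) and 0 to 455 between runs in the *Gpsm3* line (60). Leaving out each mouse in turn was not run, with 15 or more mice per group. No paired analysis was possible because replicate numbers were given in accession order. At the lowest depth 3 counts were 0.69 CPM, below every value of the 10 genes.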
